A study of Drosophila melanogaster with 9 samples.

Results

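The T-box genes encode transcription factors that bind DNA through a conserved domain, the T-box, named after the vertebrate gene T (Brachyury). In flies they act in the embryonic heart, amnioserosa, hindgut, muscles and nervous system and in the appendages, and several of them are switched on by Dpp, a BMP ligand, or Wingless (Wg), a Wnt ligand. Polycomb group proteins are known as repressors of many developmental transcription factor genes. The 8 T-box genes *bi*, *Doc1*, *Doc2*, *Doc3*, *mid*, *H15*, *byn* and *org-1* were followed here, chosen by gene symbol among the probe sets that the platform annotation pairs with 1 gene. Each of the 8 had 1 such probe set, which makes 8 of 13647 singly named probe sets and 8 of 11982 named genes.

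Messenger RNA was measured with Affymetrix Drosophila Genome 2.0 arrays in 3 groups of 3 arrays. BG3 is an established line of male cells, taken from the nervous system of larvae and grown with serum and insulin. It was either mock treated (Mock RNAi) or given dsRNA against Polyhomeotic for 5 days at 10 µg per well (Ph RNAi). Polyhomeotic (Ph) belongs to the core of PRC1, a Polycomb group complex, and the dsRNA covered sequence shared by *ph-p* and *ph-d*. The third group was wing imaginal discs from *yw* larvae late in the third instar, with 12 to 15 discs from both sexes pooled for each replicate. The labels describe no dsRNA for Mock RNAi, so effects of Ph depletion and of dsRNA as such cannot be told apart. No probe set was named for *ph-p* or *ph-d* alone. Probe sets with several gene symbols were not used by name, so no RNA level of the depleted genes is given here. The titles call the replicates biological and say no more, so each p-value rests on the spread among these samples alone, which may be in part technical. In whole cultures or discs, fewer expressing cells and less RNA per cell cannot be told apart.

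Expression is given as deposited GCRMA log2 values. On each set of arrays these values formed a lower mode of weak probe sets and an upper mode of clearly expressed ones. The boundary between the modes, taken as the lowest density between them, lay at 4.79 on the BG3 arrays and at 3.07 in wing disc. Array medians were 2.21 to 2.23 in BG3 and 0.827 to 0.842 in wing disc, so the wing disc values have a scale of their own and were compared with BG3 only as percentile ranks within each array. Arrays of one group correlated at r = 0.9904 or more across probe sets. Of the wing disc markers, 4 of 6 measured lay above the boundary on 3 wing disc arrays, against 36.0% of all probe sets. Of the neuron markers, 1 of 6 (*elav*, the pan-neuronal RNA-binding protein) lay above the BG3 boundary on 3 Mock RNAi arrays, and 0 of 6 neuroblast markers did. There 4 of 6 glia markers and 2 of 6 hemocyte markers lay above it. Each Mock RNAi array had 33.2% to 33.5% of all probe sets above it. In wing disc, the same 4 glia markers and *elav* also lay above the boundary on 3 arrays, as did 2 of 6 neuroblast and 0 of 6 hemocyte markers.

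In BG3 cells, all 8 T-box genes were in the lower mode on the 3 Mock RNAi arrays. After Ph RNAi, *bi* rose 8.21-fold and left the lower mode on 3 of 3 arrays, and the other 7 stayed there and did not pass the test. In limma's test over all 18768 probe sets, 1 of 8 T-box genes was called higher (adjusted p under 0.05) and 0 of 8 lower, against 2.42% of all probe sets called higher, 1.18% called lower and 3.6% in either direction. At an unadjusted p under 0.05 the count was also 1 of 8, against 14.0% of all probe sets. Of the probe sets that were under the boundary on all Mock RNAi arrays, 0.893% were above it on all Ph RNAi arrays, a step that 1 of the 8 T-box genes took. Of the probe sets that took it, 46.4% were above the wing disc boundary on all 3 disc arrays, as *bi* was. The median change of the 8 genes was 0.1 on the log2 scale, or 0.05 without *bi*, against -0.02 over all probe sets.

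*bi* (bifid, also known as optomotor-blind) belongs to the Tbx2 group of T-box proteins and is a Dpp target that shapes the central wing. Its log2 values were 2.88, 2.75 and 2.51 on the Mock RNAi arrays, 5.95, 5.45 and 5.85 on the Ph RNAi arrays and 9.16, 9.06 and 9.06 on the wing disc arrays. The lowest Ph RNAi value was well above the highest Mock RNAi value, so the groups did not overlap, which held upward for 8.94% of all probe sets. Its mean went from 2.71 ± 0.19 to 5.75 ± 0.27 (SD, n = 3 each), a change of 3.04 ± 0.24 (SE) on the log2 scale with a 95% interval of 2.5 to 3.57 (limma, adjusted p = 2.68e-05). As a fold the interval ran from 5.66 to 11.9. Among all probe sets this was the 126th largest rise. The fold depends on how GCRMA set the weak Mock RNAi values. With every value under the boundary raised to it, the rise of *bi* was 0.96 ± 0.17 (SE) on the log2 scale, or 1.94-fold, and was still called (limma, adjusted p = 0.0164). Its Mock RNAi values were then all equal to the boundary and had no spread.

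**Figure D1:**
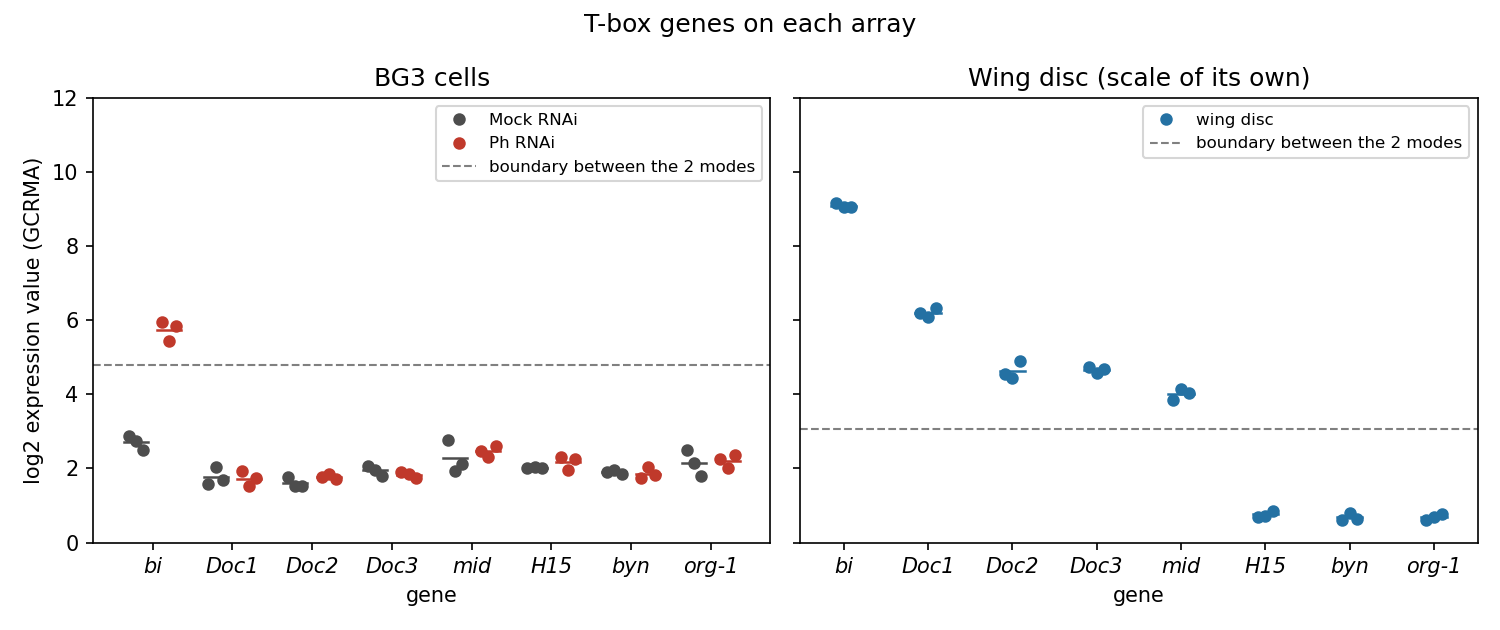
Log2 expression values (GCRMA) of the 8 T-box genes, with 1 point per array, short lines at the group means and dashed lines at the boundary between weak and expressed probe sets (4.79 in BG3, 3.07 in wing disc). The BG3 and wing disc panels have different scales of normalization and their heights should not be compared. In BG3 only the 3 Ph RNAi points of *bi* lie above the boundary, and in wing disc *bi*, the 3 *Doc* genes and *mid* do.

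The rank of *bi* within its array was at percentile 59.3 ± 2.0 in Mock RNAi, 69.3 ± 0.6 in Ph RNAi and 95.3 ± 0.2 in wing disc (SD, n = 3 arrays each). The 3 groups were apart from each other, and the order was Mock RNAi, Ph RNAi, wing disc. *bi* in BG3 cells after Ph RNAi therefore ranked below *bi* in the disc on every array.

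The 3 *Dorsocross* genes, *Doc1*, *Doc2* and *Doc3*, lie together on chromosome arm 3L and act redundantly in the amnioserosa and in heart progenitors downstream of Dpp. *Doc1* measured 1.57, 2.05 and 1.68 in Mock RNAi, 1.92, 1.52 and 1.73 in Ph RNAi and 6.20, 6.09 and 6.33 in wing disc on the log2 scale. *Doc2* measured 1.77, 1.54 and 1.52, then 1.78, 1.86 and 1.71, and in wing disc 4.56, 4.45 and 4.90. *Doc3* measured 2.07, 1.97 and 1.81, then 1.91, 1.84 and 1.74, and in wing disc 4.75, 4.58 and 4.68. For each *Doc* gene the Mock RNAi and Ph RNAi values overlapped, and all wing disc values were above the wing disc boundary. The change after Ph RNAi was -0.04 for *Doc1* (95% interval -0.36 to 0.29), 0.18 for *Doc2* (-0.06 to 0.41) and -0.12 for *Doc3* (-0.37 to 0.14) on the log2 scale. Leaving out the second replicate of either group turned the sign for *Doc1*.

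*mid* (midline) and *H15* are neighbouring genes on 2L of the Tbx20 group, which act in the heart, in the ventral epidermis and legs and, for *mid*, in axon guidance. *mid* measured 2.76, 1.93 and 2.13 in Mock RNAi, 2.48, 2.30 and 2.60 in Ph RNAi and 3.85, 4.14 and 4.03 in wing disc. *H15* measured 2.01, 2.05 and 2.01, then 2.30, 1.97 and 2.26, and in wing disc 0.69, 0.73 and 0.86. For both genes the BG3 groups overlapped, with changes of 0.19 (95% interval -0.27 to 0.64) for *mid* and 0.15 (-0.14 to 0.45) for *H15*. In wing disc *mid* was above the boundary on 3 of 3 arrays and *H15* was under it on 3 of 3. The *H15* probe set was in the lower mode on all 9 arrays, so low *H15* RNA and a weak probe set cannot be told apart.

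*byn* (brachyenteron), the fly Brachyury gene, is needed for the hindgut. Its values were 1.91, 1.96 and 1.86 in Mock RNAi, 1.73, 2.03 and 1.83 in Ph RNAi and 0.61, 0.80 and 0.65 in wing disc. *org-1* (optomotor-blind-related-gene-1) is the Tbx1 gene of flies and acts in muscle founder cells. It measured 2.50, 2.16 and 1.80, then 2.25, 2.00 and 2.36, and in wing disc 0.61, 0.70 and 0.76. Both genes were in the lower mode on all 9 arrays with overlapping BG3 groups, and changed by -0.04 (95% interval -0.30 to 0.22) for *byn* and 0.05 (-0.35 to 0.45) for *org-1*. Both signs turned when single arrays were left out.

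Over the 7 genes other than *bi*, adjusted p-values ran from 0.525 to 0.947 (limma), all BG3 values were between 1.52 and 2.76, and the highest upper bound of any 95% interval was a 1.56-fold rise. Values in the lower mode had little room to fall, so a fall of these RNAs could be missed. GCRMA also squeezes weak signals into a narrow band, so a rise of the RNA could exceed this bound on the values.

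Within the clusters, the change was compared between genes by the log2 difference of 2 probe sets on the same array, over 4 pairs, with exact two-sided permutation tests whose smallest possible p is 0.1. *Doc1* and *Doc2* differed in change by -0.22 (exact p = 0.4, adjusted 0.8), *Doc1* and *Doc3* by 0.08 (exact p = 0.7, adjusted 0.9) and *mid* and *H15* by 0.03 (exact p = 0.9, adjusted 0.9). *Doc2* and *Doc3* differed by 0.29 (exact p = 0.1, the smallest possible, adjusted 0.4). Their within-array differences did not overlap between the groups. The 5 genes were under the boundary on every BG3 array, and with weak values set to the boundary the difference was 0.0 for each of the 4 pairs.

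The wing disc separated the 8 genes differently. There 5 of 8 (*bi*, *Doc1*, *Doc2*, *Doc3* and *mid*) lay above the boundary on all 3 arrays, against 36.0% of all probe sets, and 3 of 8 (*H15*, *byn* and *org-1*) lay under it on all 3. Of all probe sets under the boundary on the 3 Mock RNAi arrays, 7.17% were above it on the 3 wing disc arrays, and these 5 genes are among them. Of the probe sets with that pattern, 11.3% were called higher after Ph RNAi, as was 1 of these 5. Mean percentiles in wing disc (SD, n = 3 arrays) were 95.3 ± 0.2 for *bi*, 76.5 ± 0.8 for *Doc1*, 68.2 ± 0.2 for *Doc3*, 68.1 ± 0.9 for *Doc2* and 65.9 ± 0.5 for *mid*. They were 45.5 ± 5.0 for *H15*, 40.9 ± 6.4 for *org-1* and 40.5 ± 6.8 for *byn*. Probe sets differ in how strongly they bind their transcript, so these percentiles give no order of expression between genes.

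The wing disc percentile was above that on every Mock RNAi array for 5 of 8 genes, the same 5, against 26.5% of all probe sets. Percentiles in the lower mode spread widely for small differences in value. *Doc1* spanned percentiles 8.5 to 41.4 over the 3 Mock RNAi arrays with log2 values from 1.57 to 2.05. The wing disc arrays differed in fat body markers. *Lsp2*, a storage protein gene of the fat body, measured 8.71, 5.68 and 2.34 on wing disc replicates 1, 2 and 3. The summed linear level of the 3 measured fat body markers ran from 9 to 715 over the wing disc arrays, while that of the 8 T-box genes ran from 672 to 715. Most of the T-box sum came from *bi*, so its narrow range says little about the other members. On replicate 3, with *Lsp2* under the boundary, the same 5 T-box genes were above it.

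**Figure D2:**
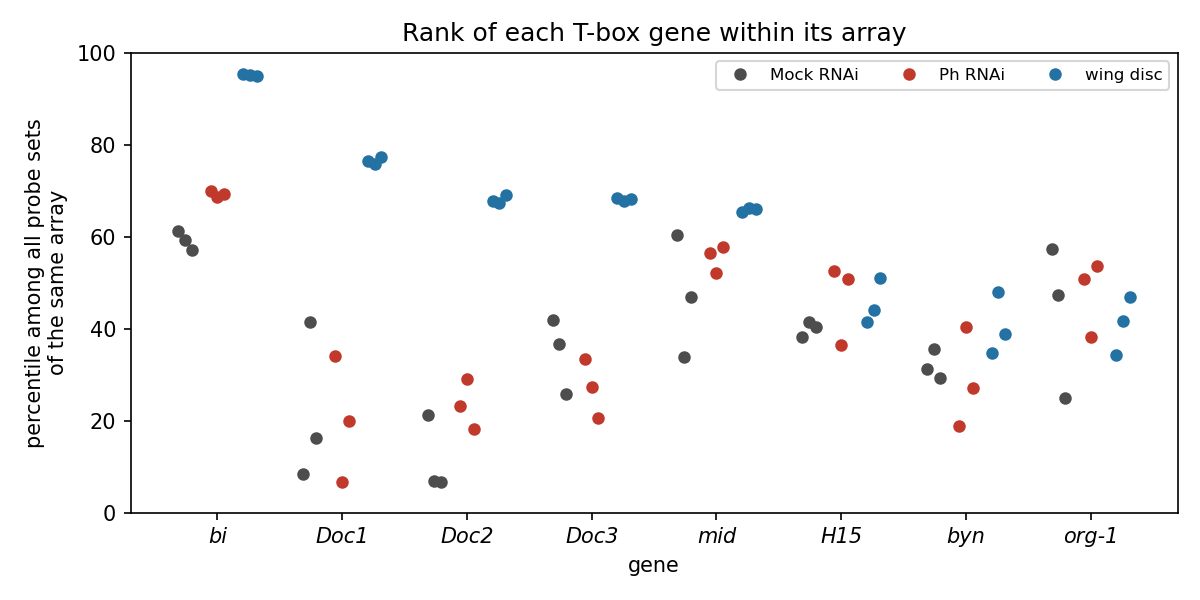
Percentile of each T-box gene among the 18768 probe sets of the same array, with 1 point per array. Wing disc points lie above both BG3 groups for *bi*, the 3 *Doc* genes and *mid*, and overlap them for *H15*, *byn* and *org-1*, where low values make the rank spread widely.

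The nearest genes with a named probe set on each side of a T-box gene or cluster, and those between, gave 22 neighbours, of which 3 were called higher (2.42% of all probe sets), 1 lower (1.18%) and 7 had an unadjusted p under 0.05 (14.0%). Of the 4 neighbours of *bi* on the X chromosome, 0 were called, 1 had an unadjusted p under 0.05, and their changes lay between -0.5 and 0.41 on the log2 scale. The *Doc* cluster showed another arrangement, with 2 of 5 neighbours called beside T-box genes that were not called. The other neighbours, among them both on the outer side of *Doc3*, changed by -0.07 to 0.27 on the log2 scale and were not called. *CG5194*, which lies between *Doc3* and *Doc2* in the RefSeq gene order, measured 4.46, 4.66 and 4.50 in Mock RNAi and 6.16, 7.03 and 6.88 in Ph RNAi. It rose 4.46-fold (limma, adjusted p = 0.00143) with no overlap between groups, and in wing disc it was in the lower mode on 3 of 3 arrays. *Argk1*, an arginine kinase gene beyond *Doc1*, measured 11.07, 10.55 and 10.52 in Mock RNAi and 13.12, 13.34 and 13.11 in Ph RNAi. It rose 5.57-fold (adjusted p = 7.07e-06, limma), also without overlap. In BG3 cells these 2 neighbours thus rose while the 3 *Doc* genes did not pass the test. In wing disc the *Doc* genes and *Argk1* were above the boundary and *CG5194* was not.

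Beside *H15*, *Acsf2*, an acyl-CoA synthetase family gene, was called lower (1.57-fold, adjusted p = 0.0465 by limma) with both groups under the boundary. Leaving out single arrays other than Mock RNAi replicate 3, or the variance trend, ended this call, with adjusted p from 0.0662 to 0.182. Beside *org-1*, *CG1440* rose 2.19-fold (adjusted p = 0.0336), a call that ended without any one of 5 of the 6 arrays (all but Ph RNAi replicate 2), with adjusted p from 0.0555 to 0.162. The 4 neighbours of *byn* held 0 calls (1 at an unadjusted p under 0.05).

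**Figure D3:**
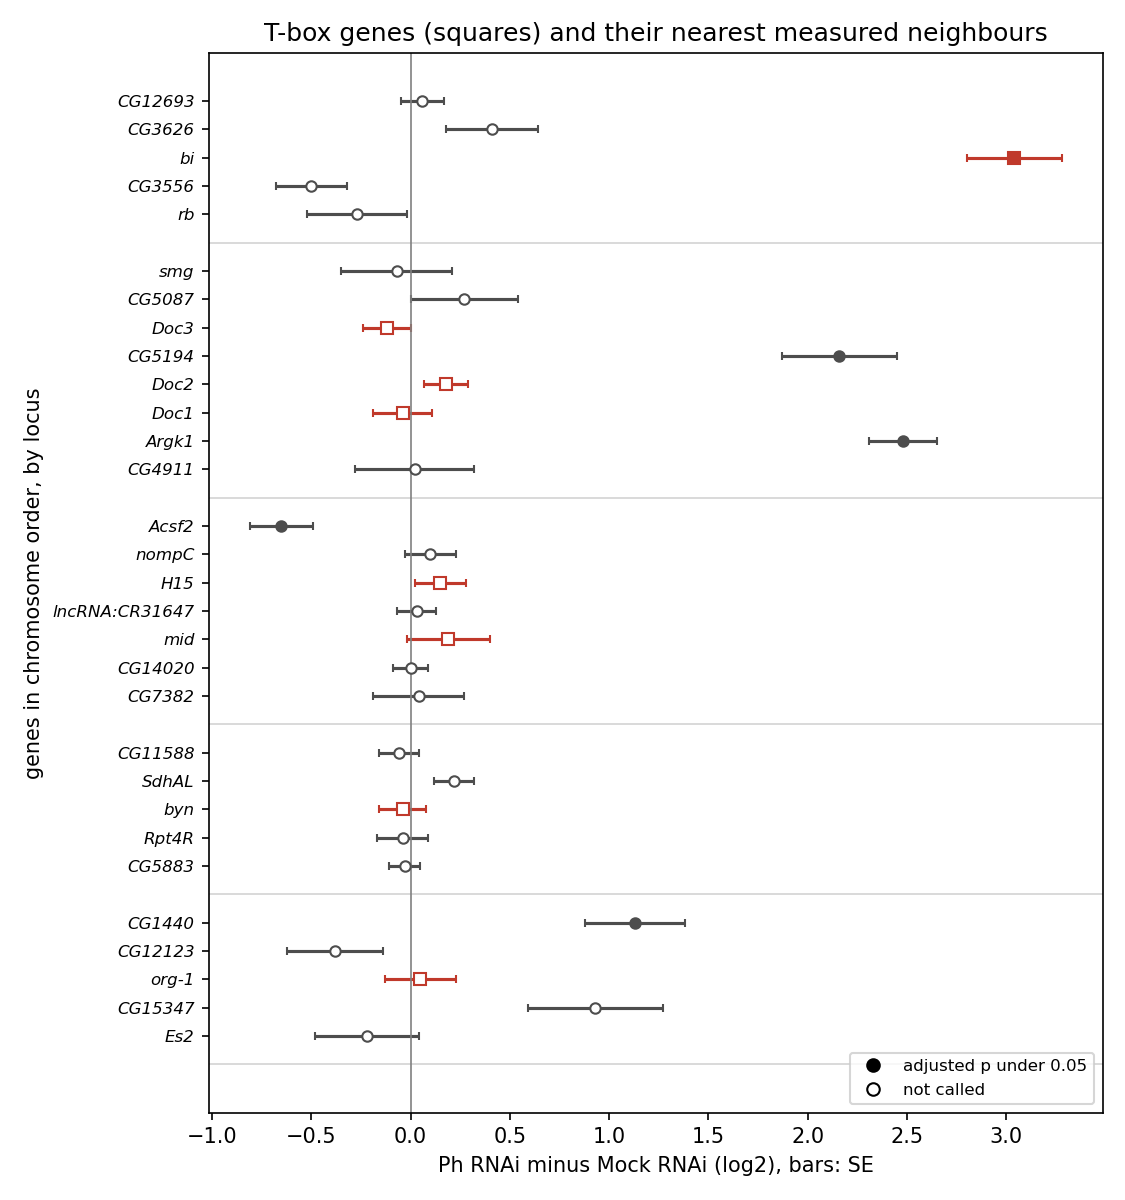
Change after Ph RNAi (log2, bars are limma standard errors) for the T-box genes (red squares) and their nearest measured neighbours (grey circles), in chromosome order within each locus. Filled symbols passed an adjusted p of 0.05. *bi* stands alone at its locus. In the *Doc* cluster *CG5194* and *Argk1* are filled, and the *Doc* genes and the other neighbours are open.

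Genes that act upstream, beside or downstream of the T-box genes were read from lists chosen by their known roles. Several genes stand in more than 1 list. Beside each list count stand the shares over all probe sets, 2.42% called higher and 1.18% lower, and their median change of -0.02. Of the probe sets under the boundary on all Mock RNAi arrays, 1.98% were called higher. As for *bi*, a fold from Mock RNAi values in the lower mode depends on how GCRMA set them. Of the Dpp and Wg inputs, 9 of 15 had a named probe set, all 9 of the Dpp branch, and 2 rose, 0 fell and the median change was 0.08. *dpp*, the BMP ligand that switches on *bi* in the wing, measured 2.07, 1.60 and 2.22 in Mock RNAi and 5.14, 6.49 and 7.60 in Ph RNAi. It rose 21.8-fold (adjusted p = 0.000332, limma) with no overlap, and the call ended when weak values were raised to the boundary (adjusted p = 0.121). *Dad*, an inhibitory Smad induced by Dpp signalling, measured 3.92, 4.73 and 5.78, then 7.75, 7.99 and 9.06, an 11.0-fold rise without overlap. The other 7 measured genes of the list, among them the receptor genes *tkv*, *put* and *sax* and the Smad genes *Mad* and *Med*, were not called. In wing disc 8 of the 9 measured inputs were above the boundary.

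Of the wing disc targets and partners of *bi*, 8 of 10 were measured and 3 rose, 0 fell, with a median change of 0.67. *tsh*, a zinc finger gene of the proximal wing, measured 3.10, 3.21 and 3.52 in Mock RNAi and 7.06, 7.02 and 6.24 in Ph RNAi and rose 11.3-fold. *nub*, a POU gene of the wing pouch, measured 2.34, 1.55 and 1.68, then 4.97, 4.27 and 5.60, an 8.5-fold rise. Its other probe sets changed by 0.15 and -0.17, and the call of the first ended with weak values raised to the boundary (adjusted p = 0.393). *salm*, a zinc finger gene induced by Dpp, rose 2.55-fold and stayed under the boundary. Of these 8 genes, 0 were above the boundary on all Mock RNAi arrays, 1 on all Ph RNAi arrays and 8 on all wing disc arrays. *bi* thus shared with *tsh* a level under the boundary in Mock RNAi and above it after Ph RNAi and in the disc. In all, 51 probe sets had this pattern, among them *dpp*, *tup*, *Dr* and *insc* of other lists.

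For the *Doc*, *mid* and *H15* genes, the list of heart and dorsal mesoderm partners had 11 of 12 measured, of which 2 rose and 1 fell, with a median change of -0.17. *tup*, the LIM-homeodomain gene of heart and amnioserosa, measured 1.59, 1.75 and 1.83 in Mock RNAi and 6.47, 5.89 and 6.64 in Ph RNAi and rose 24.4-fold, or 2.92-fold with weak values raised to the boundary. *twi*, the bHLH gene of early mesoderm, rose 3.28-fold and stayed under the boundary in BG3. *pnr*, a GATA factor gene, measured 11.24, 11.13 and 11.00, then 10.28, 9.95 and 10.17, a 1.99-fold fall whose call ended without Mock RNAi replicate 2 (adjusted p = 0.0535). Of the 6 amnioserosa partners of *Doc*, 2 rose and 0 fell (median change 0.17), *tup* again and *peb*, the zinc finger gene hindsight, at 23.9-fold. Of the axon guidance partners of *mid*, 4 of 7 were measured, and the Netrin receptor gene *fra* rose 4.7-fold while the ligand gene *NetB* fell 2.68-fold (median change -0.09).

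The hindgut partners and targets of *byn* were all measured, and 5 of 10 rose and 0 fell, against 2.42% and 1.18% of all probe sets. Their median change was 0.92, while *byn* itself was not called. Only 1 of the 10, *Dr*, was above the boundary on all Ph RNAi arrays. On all wing disc arrays 4 of the 10 were above it, among them *Dr*, *drm* and *bowl*. *Dr*, a homeobox gene, rose 17.3-fold from 2.25, 2.57 and 2.22 to 5.92, 6.72 and 6.73. The odd-skipped family genes *bowl* and *drm* rose 10.7-fold and 3.77-fold, the call of *bowl* ending with weak values raised to the boundary (adjusted p = 0.183). The homeobox gene *cad* rose 4.12-fold, a call that ended in 5 alternatives, among them without any 1 of the 3 Mock RNAi arrays (adjusted p 0.0579 to 0.0744). The fifth, *retn*, lies outside the rule for named genes and rose 3.02-fold, and like *drm* it stayed under the boundary on all BG3 arrays. *tll*, *hkb* and *fkh*, also outside that rule, which set up the hindgut in the embryo, changed by 0.02, 0.07 and 0.24 and were not called. Of the 11 muscle founder partners of *org-1*, 0 rose and 1 fell (median change -0.09). This was *kirre*, an adhesion gene of myoblast fusion, at 2.16-fold, whose other probe set changed by -0.19 and was not called.

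**Figure D4:**
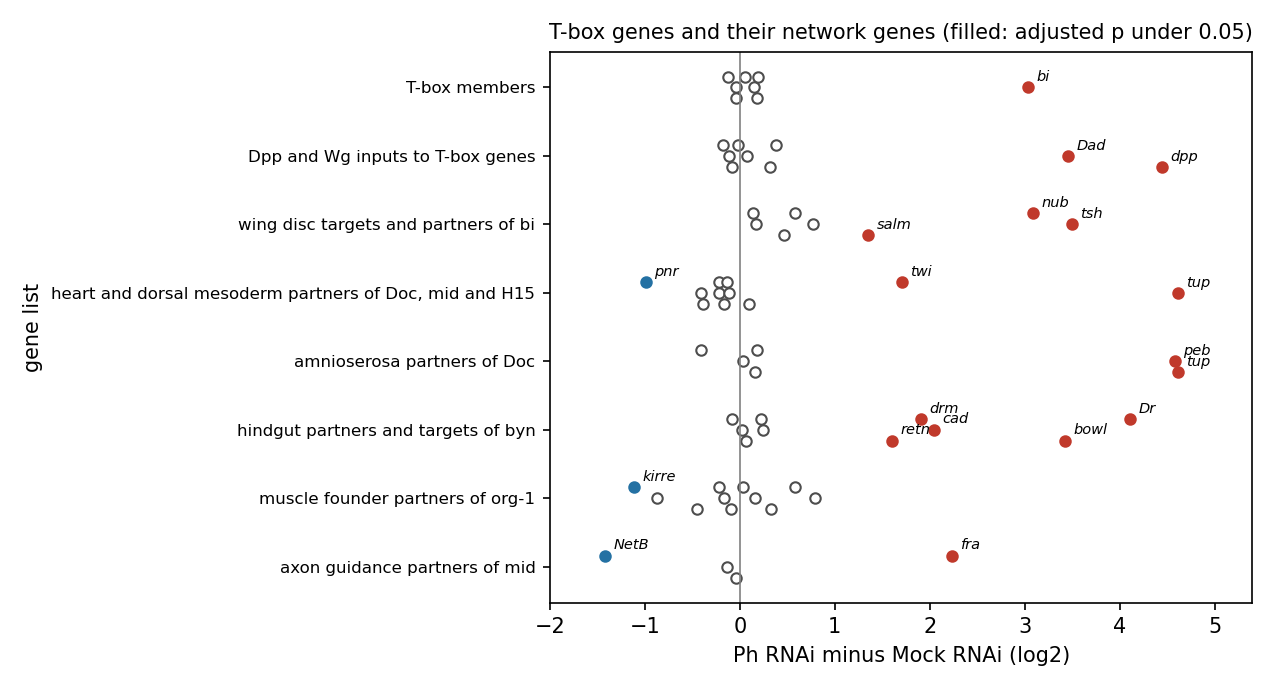
Change after Ph RNAi (log2) of the T-box genes and of each list of inputs, partners and targets, with 1 point per gene. Filled red points rose, filled blue points fell (adjusted p under 0.05) and open points were not called. *bi* is the only filled point among the 8 T-box genes, and the hindgut list holds 5 filled points while *byn* is open.

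Some markers of other cell types also moved with Ph RNAi, where 2.42% of all probe sets were called higher and 1.18% lower. Of the glia markers 3 of 6 rose and 0 fell. *repo*, the glial homeobox gene, led at 138-fold (3.08, 2.60 and 3.69 to 10.25, 10.24 and 10.19), or 43.3-fold with weak values raised to the boundary. *nrv2* rose 3.0-fold and *loco* 2.52-fold, both from above the boundary on 3 Mock RNAi arrays. *gcm*, *Gli* and *moody* changed by 0.34, 1.78 and -0.09 and were not called, and *gcm* stayed under the boundary. The summed linear level of the list was 3981 to 5458 in Mock RNAi and 11593 to 13426 in Ph RNAi. Most of it came from *nrv2* and *loco*. Of the neuroblast markers 2 of 6 rose (*pros*, 92.4-fold, and *insc*, 21.0-fold, or 8.96-fold and 10.3-fold with weak values raised to the boundary), and the summed level was 32 to 37 in Mock RNAi and 236 to 1192 in Ph RNAi, while the defining genes *dpn*, *ase* and *wor* stayed in the lower mode. Of the wing disc markers 2 of 6 rose (*nub* and *Dll*, a homeobox gene of distal limbs, at 3.29-fold and under the boundary, with other probe sets at -0.08 and 0.81), and the summed level was 108 to 199 before and 177 to 229 after. Called counts were 1 of 4 for muscle precursor markers (*twi*), 1 of 3 for tracheal markers (*vvl*, under the boundary, whose other probe set changed by -0.05), 1 of 6 for hemocyte markers (*He*, a call that ended in 7 alternatives), and 0 of 6 and 0 of 3 for neuron and fat body markers, all of them rises. The summed level of the muscle precursor markers was 2094 to 2794 in Mock RNAi and 2589 to 3289 in Ph RNAi. For hemocyte markers it was 1360 to 2581 in Mock RNAi and 953 to 1876 in Ph RNAi, and for neuron markers 102 to 202 and 157 to 255. Among the neuron markers *nrv3*, a sodium pump subunit gene, changed by -1.71 (limma, adjusted p = 0.0572). It was called lower with quantile normalization (adjusted p = 0.0285), with the replicate block (0.00487) and without Mock RNAi replicate 1 (a change of -2.31, adjusted p = 0.000693). The part of a change in cell makeup in the rise of *bi* was not tested.

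By root-mean-square difference of log2 values over the 6 BG3 arrays, the named genes most like *bi* were *zormin* (0.43), a gene for a muscle Z-disc protein, *be* (0.44) and *Epac* (0.45), a cAMP-activated exchange factor gene. Their changes after Ph RNAi were 3.01, 2.7 and 2.97, beside 3.04 for *bi*. In wing disc their mean log2 values were 1.49, 1.67 and 1.17, under the boundary of 3.07, where *bi* was at 9.09. The likeness reads level and change together over 6 arrays of 2 groups, so changes near that of *bi* follow from how these genes were picked.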

How the data were processed

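Total RNA of BG3 cells and wing discs was labelled from 200 ng and hybridised to Affymetrix arrays. The deposited log2 values per probe set were made by the authors with GCRMA, named in the submitters' processing notes with its version not given in the sources used here. GCRMA corrects background by probe sequence, normalizes arrays together by quantiles and summarizes probes, which squeezes weak signals into a narrow band. The table had 18952 rows, from which 183 control rows and 1 blank row were removed. The platform annotation gave 1 symbol to 13647 of the 18768 remaining probe sets, several to 402 and none to 4719. Gene order and chromosome arms came from the RefSeq annotation of Release 6 plus ISO1 MT, and 13535 named probe sets matched it.

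Ph RNAi was compared with Mock RNAi on the 6 BG3 arrays with limma 3.58.1 in R 4.3.3 (lmFit, eBayes with a variance trend, two-sided), with Benjamini-Hochberg adjustment over all 18768 probe sets and no filter. The fit was tested on simulated data. A call is an adjusted p under 0.05, and SE values are moderated. The boundary between weak and expressed values was the lowest density between the 2 modes of each set of arrays, and summed levels are sums of 2 to the power of the log2 values. The number of arrays limits the precision. In lists and among neighbours, a gene with several probe sets was represented by the one with the highest mean over the 6 BG3 arrays, which favours a probe set that rose, and the others are given where a called gene has them. The members and lists were chosen with earlier results of these data known. The genes named were all members, up to 4 called genes per list by size of change (in a list without a call, the gene with the smallest p), all called neighbours and the 3 genes nearest to *bi*. Some other genes of the lists, most of them not called, are also named. Alternatives were another normalization, filter, floor, variance model, replicate block, 1 probe set per gene, and leaving out each array.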

Additional observations from a re-analysis of the deposited data

How the results depend on the processing

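*bi* was called higher in 14 of 14 alternatives, the other 7 genes were not called in any of the 12 alternatives that held them, and 1 T-box gene was called in every setting. The filter and the floor held only *bi* of the 8 genes, because only its Ph RNAi values lay above the boundary. These 2 settings therefore add no separate support for its call. Without single arrays, the change of *bi* was 2.93 to 3.19, and its adjusted p over all alternatives 6.4e-07 to 0.0164 (limma). Signs turned for values that were not called. Over the fits that left out 1 array, the change of *Doc1* ran from -0.14 to 0.1 (above 0 when replicate 2 of either group was left out), that of *byn* from -0.13 to 0.03 (above 0 without Ph RNAi replicate 1), and that of *org-1* from -0.13 to 0.22 (below 0 without replicate 3 of either group). The difference *Doc1*-*Doc3* ran from -0.08 (without Mock RNAi replicate 1) to 0.21, and that of *mid*-*H15* from -0.15 to 0.28, below 0 also with quantile normalization (-0.02).

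Over all probe sets, 454 were called higher and 222 lower. With weak values set to the boundary, 271 were called higher. Leaving out single arrays gave 322 to 472 higher and 105 to 190 lower, where dropping the third replicate of Mock RNAi gave 105, the second 111 and the third of Ph RNAi 126. The samples share replicate numbers, but the study methods name no pairing, so the numbers were not taken as pairs. The deviations of same-numbered arrays from their group means correlated at r of 0.15, 0.14 and -0.148. With the replicate block, 621 were called higher and 297 lower. The 11 of 24 mean percentiles that moved by more than their SD when only singly named probe sets were ranked were all lower. Weak signal limits the 7 genes in BG3 cells, where the boundary is a broad, shallow dip, and 3 arrays per group limit all tests. One alternative, a robust prior, was added after seeing the data and changed no call of a T-box gene. The cause of these shifts was not tested.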
